A study of Enchytraeus albidus with 21 samples.

Results

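Transcript levels in the white potworm Enchytraeus albidus were compared between worms kept for 4 days and worms kept for 2 days in control soil. The comparison rests on the 4 arrays labelled 4 days and the 4 arrays labelled 2 days in experiment 2, chosen by their titles, which are 8 of the 21 arrays in the series. Each array held labelled RNA from the whole bodies of 10 mature adults, recognised by a well developed clitellum (the glandular band that forms the cocoon). Both groups were kept in 25 g of moist soil per vessel, at 20 °C under a daily cycle of 16 h light and 8 h dark, and received no added chemical. They therefore differed, as far as the labels say, only in the time spent in the soil. The same experiment has 4 arrays of worms kept for 8 days, and experiment 1 has 3 arrays each of worms kept for 2 days in soil spiked with acetone, of worms kept for 2 days in control soil, and of worms taken straight from the culture. The design text names this comparison as one of exposure time under control conditions.

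Enchytraeids are small segmented worms that feed on decaying plant matter and microbes, and they are used as test animals in soil toxicology. In such tests adult worms are moved from a culture into fresh soil, and chemical effects are read against animals kept in clean soil for the same time. The control animals thus carry whatever the move and the time in soil do to transcript levels. A whole-body extract mixes gut, body wall, coelomocytes, chloragogenous tissue and reproductive organs. In such an extract, fewer cells of a type and less RNA per cell cannot be told apart.

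The array was a single-colour design with 1035 worm probes, each in 14 or 15 spots. Levels are given as log2 processed signal relative to the 75th percentile of the worm spots of that array. A difference of 1 on this scale is a 2-fold change. The files pair no probe with a gene. Probes are therefore named by their identifiers only, what they encode is not stated, and the tissue on the label could not be checked against marker genes. Levels of different probes were not read as amounts of different transcripts, since a spot's brightness also depends on its probe. Probes were ordered by brightness only to describe their signal.

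Some arrays stood apart, and their labels matter for every result. Arrays 2 and 4 of the 2-day group were nearly identical. The spread of the log2 differences between them, given as a median absolute deviation (MAD) scaled to an SD, was 0.0717, and 0 probes differed over 2-fold. Their mean served as a single sample, so that 4 samples at 4 days faced 3 at 2 days. Levels at 2 days are listed in the order replicate 1, the averaged pair and replicate 3. A newer scanner model read 4-day replicates 1 and 2, and an older model read the remaining 19 arrays, including 4-day replicates 3 and 4 and all 2-day arrays. No scan day and no slide held arrays of both groups. The signal at the 75th percentile was 2902.5, 1670, 1300 and 1750 on the 4-day arrays, against 868.25, 2570, 1150 and 1760 on the 2-day arrays. The groups overlapped in this signal (exact permutation test on log2 values, p = 0.343, two-sided). A 4-day array showed 762 to 908 probes well above background, and a 2-day array 854 to 912. Spike-in RNAs were added in known ratios before labelling. Their 6 brighter probes lay at a mean of 2.17 ± 0.74 above the 75th percentile at 4 days (SD, n = 4) and 1.96 ± 0.51 at 2 days (SD, n = 3). The groups overlapped (exact permutation test, p = 0.8, two-sided). The dimmer spike-in probes were left out. The brightest read 17.45 and 16.22 log2 units on 4-day replicates 1 and 2. It read 15.980 to 16.035 on the other arrays of both groups, so this mean also varied with scanner model. The number of arrays limits the precision: with 4 samples against 3, an exact test of 1 probe cannot give a two-sided p below 0.0571. The statistics across probes therefore come from limma, which shares information on the spread between probes.

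Few transcripts separated worms after 4 days from worms after 2 days. Of 859 probes that could be tested, 4 changed, which is 0.466% (limma, Benjamini-Hochberg adjusted p under 0.05). P2_B7_T7_1328934, P5_A4_T7_1329813 and P1_E4_T7_1328836 rose (3 probes, 0.349%), and Ealb_Met_P6_H9_SP6_2090577 fell (1 probe, 0.116%). P2_B7_T7_1328934 and P1_E4_T7_1328836 could be tested only because the 4-day arrays, where they were high, all showed them well above background. Without adjustment, 93 probes had a p under 0.05 (10.8%), 31 of them higher at 4 days (3.61%) and 62 lower (7.22%). The 4 samples of one time lay wholly above or below the 3 samples of the other for 66 probes (7.68%), of which 24 were higher at 4 days (2.79%) and 42 lower (4.89%).

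P2_B7_T7_1328934 was detected in every replicate at 4 days and in none at 2 days. Its levels were −1.99, −2.27, −4.28 and −3.52 at 4 days, against −9.26, −10.74 and −8.54 at 2 days. None of the 2-day arrays showed it well above background. The lowest 4-day sample was thus 4.26 log2 units above the highest 2-day sample. The 4-day mean was −3.02 ± 1.08 (SD, n = 4) and the measured 2-day mean −9.51 ± 1.12 (SD, n = 3). The measured log2 difference was 6.5 (adjusted p = 0.0194). The 2-day signals were not well above background, so a lower bound on the ratio of the means was also taken, at 21.5-fold. This bound was not itself tested. For that bound the 2-day level of each array was taken as the dimmest signal that still counted as well above background there, or as the probe's own signal if that was higher. The call was lost under normexp background correction, where the difference was 1.96 (adjusted p = 0.253) against 6.5 in the processed signal, and in the authors' deposited table, where it was 5.16 (adjusted p = 0.0561). It was the 1 probe of 1035 that was well above background on every 4-day array and on no 2-day array. It entered the test through the 4-day group alone. In limma without a filter on dim probes it kept its call (adjusted p = 0.0290).

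The same probe did not keep its 4-day level at 8 days. The 8-day levels were −9.79, −10.42, −6.30 and −10.24, none of them well above background. In experiment 1 it was well above background in 1 of 3 acetone samples, at −2.96, and in 1 of 3 water controls, at −2.31. The other samples of these groups lay between −10.11 and −9.67. In worms from culture it was well above background in all 3 samples, at −3.34, −1.30 and −2.90. Across the series the probe was well above background at levels between −4.28 and −1.30, or was near the background, and samples of a single group fell on both sides in experiment 1.

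P5_A4_T7_1329813 was also higher at 4 days. It stood at −1.92, −1.06, −2.87 and −2.27 in the 4-day samples, against −5.28, −4.26 and −5.38 in the 2-day samples, with no overlap. The 4-day mean was −2.03 ± 0.75 (SD, n = 4), against a 2-day mean of −4.97 ± 0.62 (SD, n = 3). The log2 difference was 2.95 ± 0.48 (SE; adjusted p = 0.0194), a 7.71-fold difference with a 95% interval of 3.70 to 16.1. Under normexp it was 1.77 and under spike-in centring 2.74, neither past the threshold (adjusted p = 0.119 and 0.223). At 8 days the levels were −2.63, −2.43, −3.49 and −3.33. In experiment 1 this probe averaged −1.27 with acetone, −0.35 in the water controls and −1.66 in culture, so that the 2-day samples of experiment 2 were its lowest in the series.

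P1_E4_T7_1328836 was a dim probe on all arrays. Its levels were −5.43, −5.32, −5.78 and −5.84 at 4 days, against −7.48, −6.95 and −8.08 at 2 days, where 2 of the 4 arrays showed it well above background. The groups did not overlap, and the spread was small at 4 days (−5.60 ± 0.26 SD, n = 4, against −7.50 ± 0.57 SD, n = 3, at 2 days). The log2 difference was 1.91 ± 0.36 (SE; adjusted p = 0.0449), 3.75-fold between the measured levels. In 2-day replicates 1 and 3 the probe was not well above background, so this size rests on signals near the background there. The call did not hold under normexp background correction, where the difference was 0.09 (adjusted p = 0.883). Under quantile normalization it was 2.23 and did not pass (adjusted p = 0.261). The probe entered the test through the 4-day group alone, and without a filter on dim probes it did not pass in limma (adjusted p = 0.0759).

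Ealb_Met_P6_H9_SP6_2090577 was the transcript that fell. It stood at −0.15, −1.02, −0.34 and 0.19 in the 4-day samples, against 2.23, 1.61 and 1.85 in the 2-day samples. All 4 of these 4-day levels were lower than in any of the other 16 samples of the series. The 4-day mean was −0.33 ± 0.51 (SD, n = 4), against a 2-day mean of 1.90 ± 0.31 (SD, n = 3), a log2 difference of −2.23 ± 0.35 (SE; adjusted p = 0.0194). This is a 4.68-fold lower level, with a 95% interval of 2.75 to 7.98. By 8 days the probe stood at 1.63, 1.13, 1.53 and 1.21. It averaged 1.47 with acetone, 1.55 in the water controls and 2.41 in culture. It was well above background on all 21 arrays, and its difference was −2.20 under both quantile normalization and normexp, which kept the call. Median centring gave −1.85 and spike-in centring −2.44, neither past the threshold (adjusted p = 0.121 and 0.248).

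**Figure D1:**
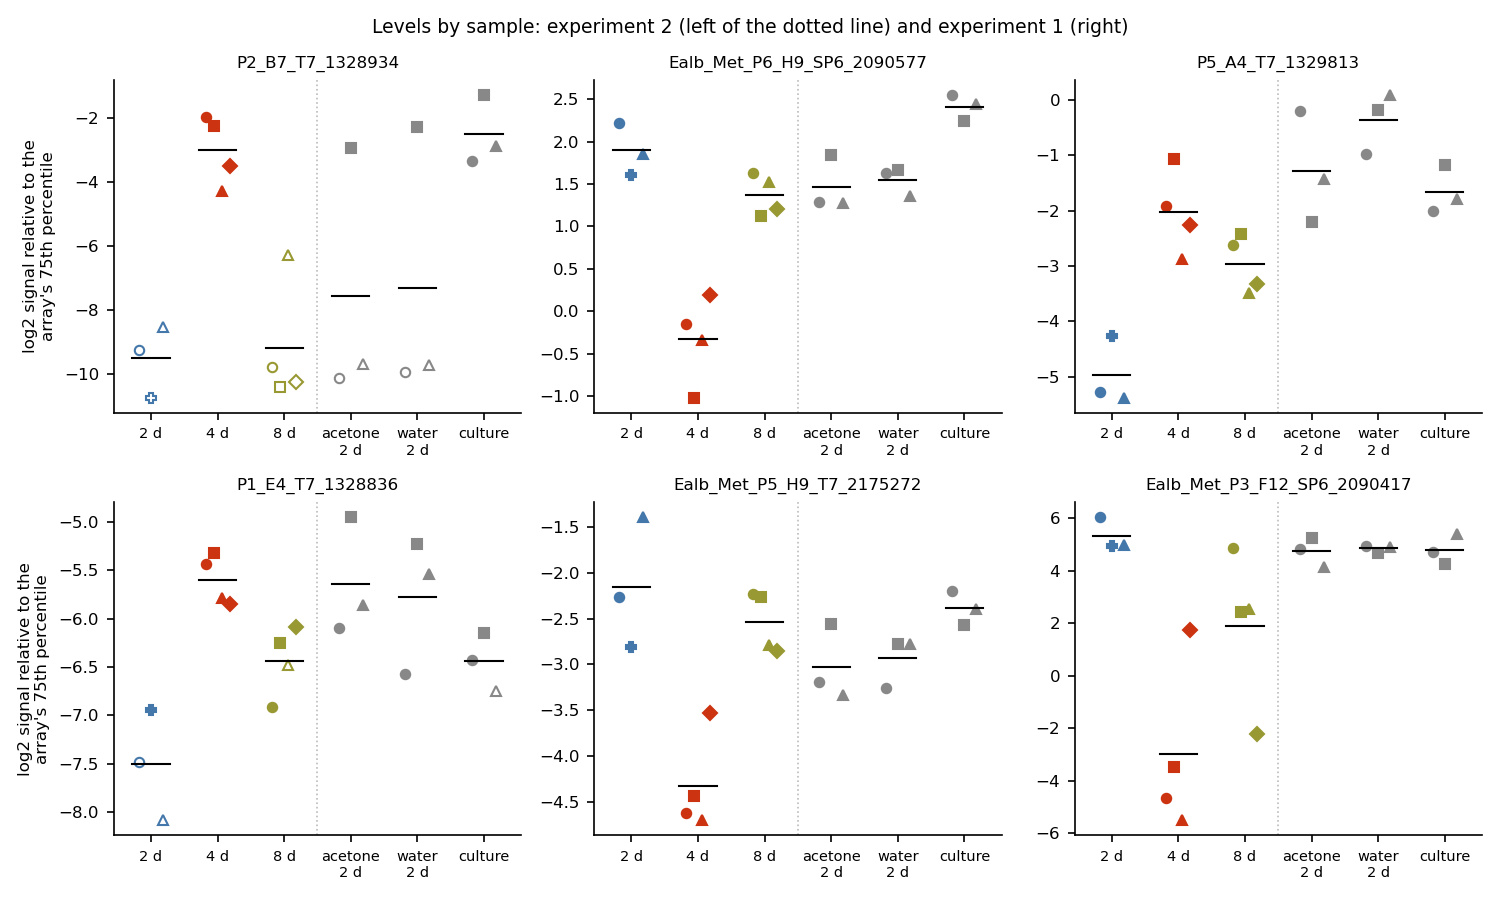
Log2 level relative to the array's 75th percentile (vertical axis) of 6 probes in each sample, by group. Circles, squares, triangles and diamonds are replicates 1 to 4, the cross is the averaged pair of 2-day arrays, open symbols are arrays where the probe was not well above background (for the cross, on either array), and bars are group means. The first 4 panels in reading order are the called probes: the 4-day symbols lie clear of the 2-day ones in each, by more than 1 log2 unit.

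Beyond the 4 probes, Ealb_Met_P5_H9_T7_2175272 came closest to the threshold without passing. It stood at −4.62, −4.43, −4.69 and −3.53 at 4 days, against −2.27, −2.80 and −1.40 at 2 days, a log2 difference of −2.16 ± 0.42 (SE; adjusted p = 0.0508). Its 4-day samples too lay below all 16 others, of which the 4 at 8 days were at −2.24 to −2.85. It passed the threshold in 8 of 32 alternative settings. No clone named on the array had more than 1 probe, so no second probe of a called clone could be set beside it.

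The widest difference of all did not pass. Ealb_Met_P3_F12_SP6_2090417, singled out after its values were seen, stood at −4.66, −3.49, −5.50 and 1.73 at 4 days, against 6.03, 4.95 and 4.98 at 2 days. The log2 difference was −8.30 ± 1.76 (SE; adjusted p = 0.0677). The groups did not overlap, but the 4-day samples themselves spanned 7.23 log2 units, a 150-fold range. In the averaged 2-day pair the spots were saturated, so the level there is a lower bound. At 8 days the levels were 4.85, 2.44, 2.52 and −2.23, and the spread between samples of one group was again several log2 units. The spots were saturated on all arrays of experiment 1, at levels of 4.12 to 5.39.

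Size alone did not set the called probes apart. Over 2-fold differences were seen for 175 probes (20.4%), 42 higher at 4 days (4.89%) and 133 lower (15.5%). Over 4-fold differences were seen for 31 probes (3.61%), 8 higher (0.931%) and 23 lower (2.68%). Of these 31, 28 did not pass the test. Their median SE was 0.841 log2 units, and for 16 of them the groups overlapped. Among the 4 calls the SE ranged between 0.351 and 0.977. The median 95% interval over all probes reached 1.05 log2 units to either side of the difference, or 2.07-fold. For 101 of 859 probes (11.8%) the whole interval lay within 2-fold either way. For the other probes a 2-fold difference was not excluded at this number of samples.

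Most differences leaned toward lower levels at 4 days, and this lean depended on the scaling. The median log2 difference over 859 probes was −0.26, with quartiles of −0.68 and 0.17, and 66.8% of probes were lower at 4 days. After quantile normalization the median was 0.01 and 49.1% were lower. Of the non-overlapping probes, 38 were then higher (4.42%) and 38 lower (4.42%). The lean was widest for dim probes under the 75th percentile scaling. The median difference was −0.47 among the 287 dimmest probes, −0.22 among the 285 of middle brightness and −0.11 among the 287 brightest. Relative to the 2-day mean, the median probe stood at −0.42, 0.03, −0.29 and −0.28 in 4-day replicates 1 to 4.

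**Figure D2:**
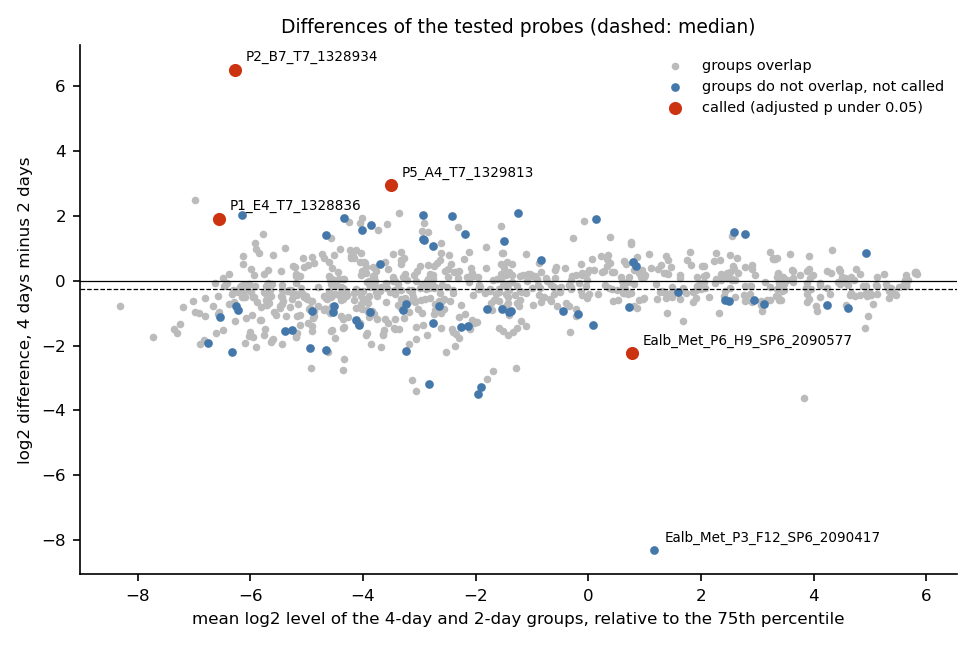
Log2 difference, 4 days minus 2 days (vertical axis), against the mean log2 level of both groups (horizontal axis) for the 859 tested probes. Red points are the 4 called probes, blue points other probes whose groups do not overlap, grey points the rest, and the dashed line is the median of −0.26. Ealb_Met_P3_F12_SP6_2090417 at −8.30 is labelled though it did not pass.

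The identifiers of the probes fall into 4 forms, whose meaning the files do not spell out, and the forms were known to differ in these data from earlier results. Of the tested probes, 257 carry a plate position only, 288 carry Met, 162 carry Pest and 152 are contigs. The plate-position probes had a median log2 difference of 0.01, against −0.36 for Met, −0.29 for Pest and −0.51 for contigs. Among the plate-position probes, 18 did not overlap and were higher at 4 days and 11 were lower (4.28%), beside 2.79% higher and 4.89% lower over all probes. For Met probes 4 were higher (1.39%) and 17 lower (5.90%), for Pest 1 (0.617%) and 6 (3.70%), and for contigs 1 (0.658%) and 8 (5.26%). After quantile normalization the non-overlapping counts, higher and lower, were 28 and 4 of 257 plate-position probes and 7 and 19 of 288 Met probes. They were 2 and 8 of 162 Pest probes, 1 and 7 of 152 contigs, and 38 and 38 of all 859 (4.42% each). The median difference of the plate-position probes was then 0.24. The 3 called probes that rose are all plate-position probes, a class that holds 257 of the 859 tested, and the 1 that fell is a Met probe. The plate-position probes were also the steadiest within the groups, with a median SD of 0.538 at 4 days and 0.427 at 2 days, against 0.692 and 0.585 over all probes.

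Presence and absence told little more than levels. Of 1035 probes, 728 were well above background on all 8 arrays and 93 on none. On every 4-day array 742 were, against 840 on every 2-day array. Of 84 probes that were detected on every 2-day array and on 3 of the 4-day arrays, 71 were missing on 4-day replicate 3, the array with the fewest detected probes. No probe but P2_B7_T7_1328934 was detected on all 4-day and no 2-day arrays.

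The converse held for 3 probes, named here after their values were seen: Contig136, Ealb_Met_P7_G2_SP6_2090613 and Ealb_Pest_P1_E6_SP6_2090859. They were detected on every 2-day array and on no 4-day array. Contig136 stood at −9.69, −7.97, −8.50 and −8.22 at 4 days, against −6.56, −8.24 and −5.81 at 2 days. The measured levels of the groups overlapped for all 3 probes, and in each the averaged pair was the lowest of the 2-day samples. With 4-day levels raised to the dimmest signal still well above background, the means were 1.21-fold, 2.35-fold and 1.66-fold lower at 4 days, as ordered above. These ratios were not tested. The interval of each measured difference included no change, so no least size of decrease is shown. None of the 3 probes passed the test (adjusted p = 0.480, 0.467 and 0.528).

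The pooled samples of worms kept for 4 days differed among themselves about as much as they differed from the 2-day samples. The median probe had an SD between samples of 0.692 on the log2 scale at 4 days (n = 4), against 0.585 at 2 days (n = 3). The 2-day value was 0.215 without the averaged pair, that is, between 2-day replicates 1 and 3, the dimmest arrays of the 8. The SD exceeded 1 log2 unit for 24.4% of probes at 4 days and 19.1% at 2 days. The 8-day group had a median SD of 0.519 (n = 4). In experiment 1 the median was 0.365 with acetone, 0.196 in the water controls and 0.282 in culture (n = 3 each).

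Pairs of samples gave the same picture. The MAD of the log2 differences ranged between 0.677 and 1.37 over the 6 pairs of 4-day samples (median 1.09). It ranged between 0.669 and 1.49 over the 12 pairs of a 4-day with a 2-day sample, and between 0.446 and 1.20 over the 3 pairs of 2-day samples. A 2-fold difference or more was seen for 40.8% of probes in the median pair of 4-day samples and for 39.0% in the median pair across the groups. The closest pair across the groups was 4-day replicate 4 with the averaged 2-day pair, at 0.669, closer than any 2 of the 4-day samples. The closest 4-day samples were replicates 3 and 4, at 0.677, which shared a slide and a scan day. Replicates 1 and 2, both read on the newer scanner model, lay at 1.05. The other pairs of 4-day samples crossed scanner models and lay at 1.01 to 1.37.

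**Figure D3:**
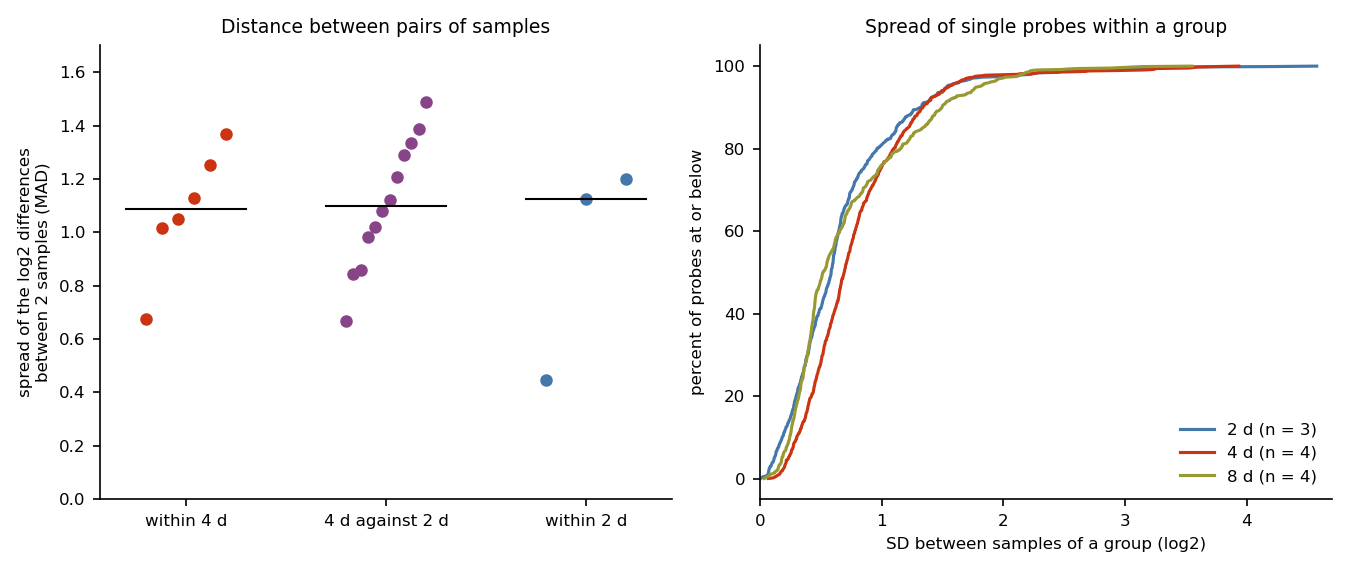
Left, the MAD of the log2 differences over 859 probes for each pair of samples (points) with medians (bars): pairs within 4 days, of a 4-day with a 2-day sample, and within 2 days. The pairs within 4 days (0.677 to 1.37) fall in the range of those between the groups (0.669 to 1.49). Right, the percent of probes at or below a given SD within each time point, with medians of 0.585 at 2 days, 0.692 at 4 days and 0.519 at 8 days.

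The 4-day samples can also be set side by side by scanner model. Replicates 1 and 2, read on the newer model, and replicates 3 and 4, read on the older one, differed over 2-fold in their means for 325 of 859 probes (37.8%). For 480 probes (55.9%) both replicates of one model lay above both of the other. The median difference, newer minus older, was 0.12. Slopes of signal against spike-in amount were 0.945 and 0.964 on the newer model. On the older-model arrays of the 4-day and 2-day groups they were higher, at 1.02 to 1.05. The lowest older-model slope of experiment 2 was 0.933, in 8-day replicate 4. Scanner model, slide and worms change together here and cannot be told apart. The older model saturates at a lower signal: 54 tested probes were saturated on at least 1 array of both time points together, and none of the 4 calls was among them.

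The size of the called differences varied with the 4-day arrays used. Their direction could not, since the 4-day samples all lay to one side of the 2-day samples. P2_B7_T7_1328934 differed by 7.38 ± 1.18 (SE) with 4-day replicates 1 and 2 alone and by 5.61 ± 1.18 with replicates 3 and 4 alone. P5_A4_T7_1329813 differed by 3.48 ± 0.51 with replicates 1 and 2 and by 2.41 ± 0.49 with replicates 3 and 4. Ealb_Met_P6_H9_SP6_2090577 differed by −2.48 ± 0.39 and −1.98 ± 0.35 in the same order, and P1_E4_T7_1328836 by 2.13 ± 0.42 and 1.69 ± 0.42. None of them passed with replicates 3 and 4 alone (adjusted p = 0.199, 0.199, 0.156 and 0.239), where 0 of 859 probes passed in limma and 75 had an unadjusted p under 0.05. With replicates 1 and 2 alone 34 probes passed, 21 higher and 13 lower, the 4 called probes among them.

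A small set of transcripts varied over several log2 units among the pooled samples of worms kept for 4 days. These were taken after their values were seen, as the probes with an SD over 2 at 4 days, and they carry no test. There were 18 of 859 (2.10%), against 22 at 2 days and 25 at 8 days, and 3, 12 and 4 in the acetone, water control and culture groups of experiment 1. Of the 18, 3 also varied this much at 2 days, 5 at 8 days and 7 in some group of experiment 1, while 7 did so in the 4-day group alone.

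Some of them divided the 4-day samples by scanner model. P2-11A_T7_618940 was at −3.93 and −3.11 in 4-day replicates 1 and 2 and at 2.05 and 4.16 in replicates 3 and 4, against 0.19, 0.08 and −0.68 at 2 days. Ealb_Met_P2_E3_SP6_2090254 ran the other way, at 1.55 and 0.71 in replicates 1 and 2 and at −4.37 and −6.01 in replicates 3 and 4, against −3.29, −3.44 and −4.64 at 2 days. In both, the 4-day samples divided by scanner model, as they did for 10 of the 18 variable probes (55.6%) and 480 of all 859 (55.9%). The 4-day samples of P2-11A_T7_618940 lay to either side of the 2-day samples. For Ealb_Met_P2_E3_SP6_2090254, 4-day replicate 3 fell within the range of the 2-day samples.

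In others 1 replicate stood alone. Contig46 was at 5.86, 6.25 and 5.20 in 4-day replicates 1, 2 and 4 and at −0.64 in replicate 3, against 6.21, 4.92 and 5.80 at 2 days, where its spots were saturated on every array. Contig8 was at −6.17, −6.47 and −5.62 in replicates 1, 2 and 4 and at −0.78 in replicate 3, against −2.47, −0.50 and −1.13 at 2 days. Ealb_Met_P7_C1_SP6_2090602 followed Contig8 closely, at −5.87, −6.78 and −5.71 in replicates 1, 2 and 4 and at −0.25 in replicate 3, against −2.62, −0.69 and −1.48 at 2 days. Across all 20 samples these 2 probes correlated at r = 0.997, and each correlated with Contig119 at 0.987 or above. Whether such probes read a single transcript is not stated in the files. Each was counted as 1 probe among the variable probes, so those counts need not be counts of separate transcripts. P3_5D_T7_1329685 and Ealb_Pest_P3_H7_T7_2175129 formed another pair (r = 0.980 over 20 samples), low in 4-day replicate 2 and in 2-day replicate 1.

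**Figure D4:**
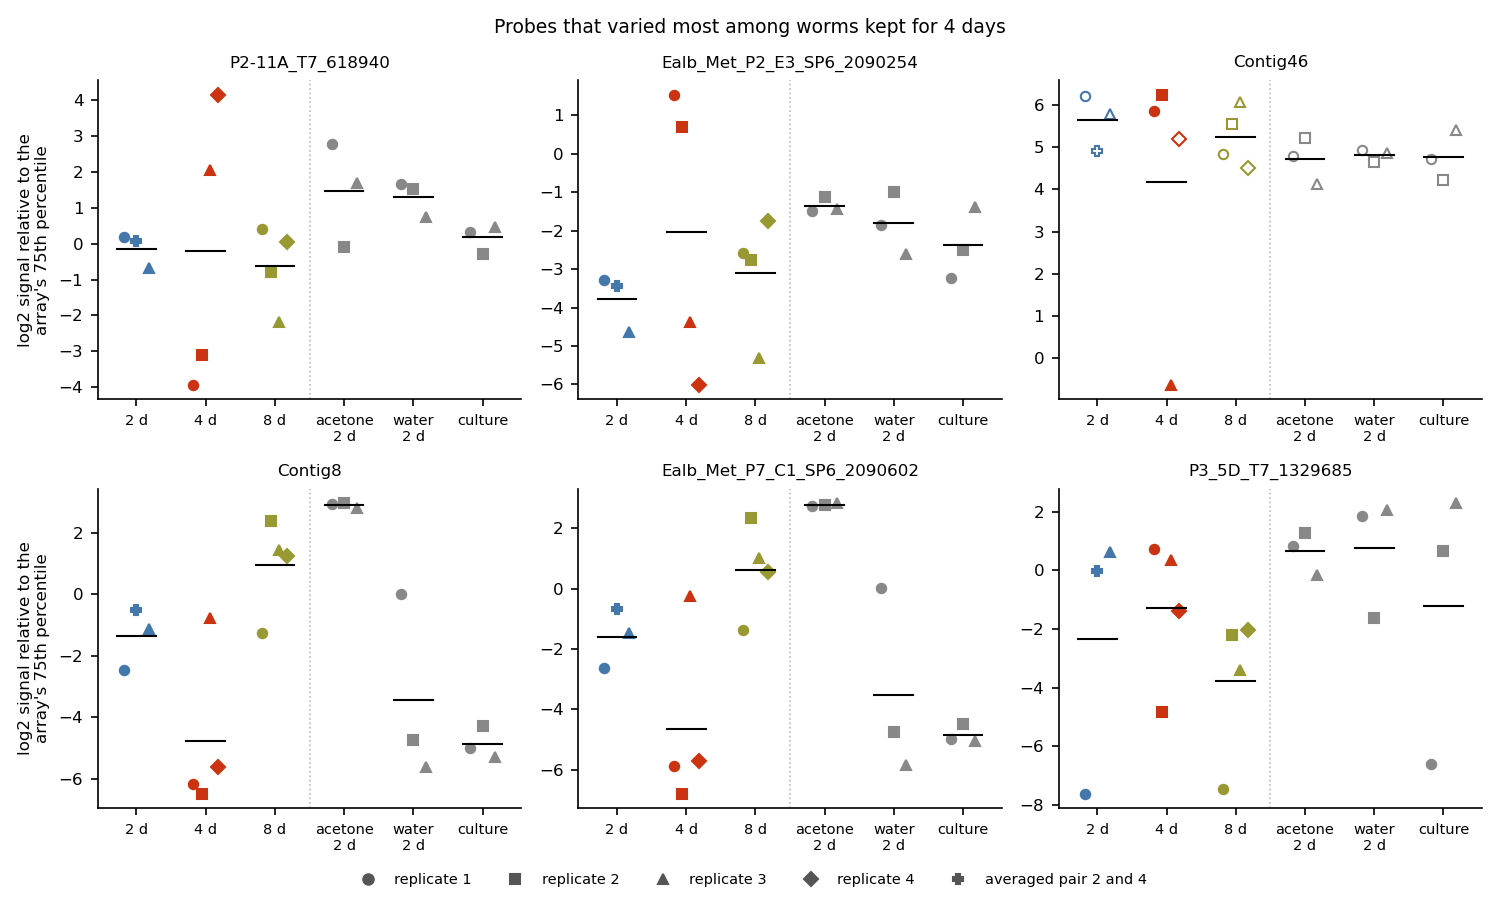
Log2 level relative to the array's 75th percentile (vertical axis) in each sample, by group, for 6 of the 18 probes with an SD over 2 at 4 days. Symbols are replicates as in the legend, open symbols are saturated spots, and bars are group means. The 4-day samples of P2-11A_T7_618940 span −3.93 to 4.16, and Contig46 is low in 4-day replicate 3 alone.

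The other groups of the series place the differences in time. For the 66 non-overlapping probes, the 8-day mean lay between the 4-day and 2-day means for 58, beyond the 4-day mean for 6 and beyond the 2-day mean for 2. Over all 859 probes it lay between them for 396. The 66 were chosen for wide differences between 4 and 2 days, which favours an 8-day mean falling between, so nothing is read from the contrast of these counts. Of the 58 and the 8 others together, the 8-day mean was nearer to the 2-day mean for 35 and nearer to the 4-day mean for 31, against 496 and 363 of all 859 probes.

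The worms of experiment 1 that also spent 2 days in control soil offer a second 2-day group, from a separate experiment with its own scan days. Of the called probes, Ealb_Met_P6_H9_SP6_2090577 averaged −0.33 at 4 days, against 1.90 and 1.55 in the 2-day groups of experiments 2 and 1. P5_A4_T7_1329813, in contrast, averaged −2.03 at 4 days, against −4.97 in experiment 2 and −0.35 in experiment 1, so that its direction turned with the 2-day group it was set against. These values across experiments were not tested. P1_E4_T7_1328836 averaged −5.60, against −7.50 and −5.78.

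Set against every other sample of the series, the 4-day samples lay above all 16 for 0 probes and below all 16 for 3 probes, which besides the Ealb_Met_P6_H9 and Ealb_Met_P5_H9 probes was Contig76, named after its values were seen. Contig76 differed by −1.31 ± 0.29 (SE; adjusted p = 0.0841). The 2-day samples of experiment 2 lay above all 17 others for 4 probes (Contig103, Contig82, Ealb_Met_P8_F8_SP6_2091134 and P5_F4_T7_1329818, named after their values were seen). They lay below all others for 9, among them P1_E4_T7_1328836.

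Whether the 4 probes passed the threshold depended on single samples, more than the sizes of their differences did. When 4-day replicate 1 was left out, limma called 0 probes, and 63 had an unadjusted p under 0.05. It also called 0 when 2-day replicate 1 was left out (56 unadjusted) and when 2-day replicate 3 was (48 unadjusted). Without the averaged 2-day pair 17 probes passed, and without 4-day replicate 4 there were 11; the 4 calls were among both. The sizes moved less than the calls did. Over the fits without 1 of the 4-day or 2-day samples, the difference of P2_B7_T7_1328934 stayed between 5.88 and 6.98, that of P5_A4_T7_1329813 between 2.62 and 3.30, that of P1_E4_T7_1328836 between 1.62 and 2.19, and that of Ealb_Met_P6_H9_SP6_2090577 between −2.40 and −1.998. No alternative turned the direction of any of the 4, which for the fits with samples left out follows from the groups not overlapping.

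**Figure D5:**
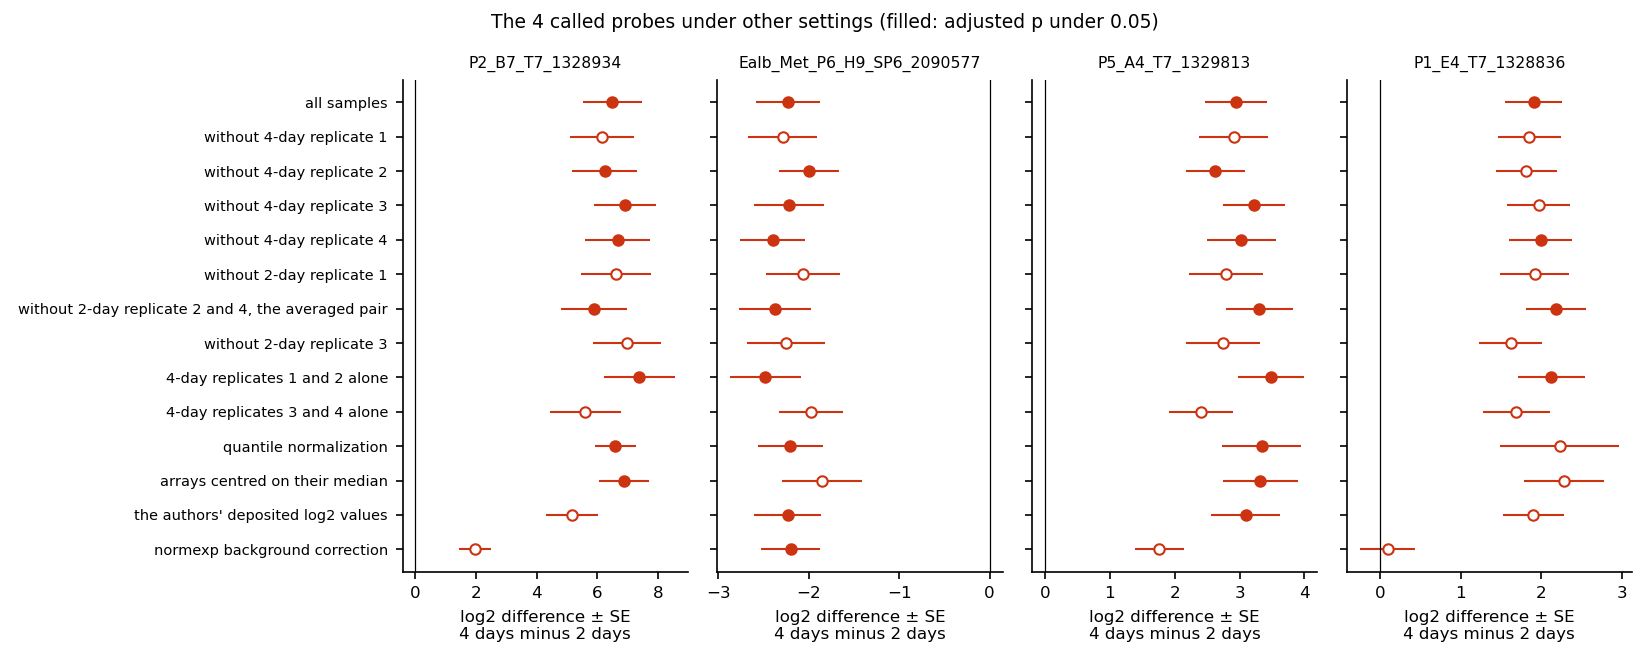
Log2 difference, 4 days minus 2 days, with its SE (horizontal axis) for the 4 called probes under all samples, with each 4-day or 2-day sample left out, with 4-day replicates of 1 scanner model alone, and under other scalings or background correction (vertical axis). Filled circles passed an adjusted p of 0.05. All circles lie on one side of 0, and none is filled without 4-day replicate 1 or 2-day replicates 1 or 3.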

How the data were processed

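Whole-worm RNA of 21 samples was hybridised to single-colour (Cy3) Agilent arrays. Per the file headers, Agilent Feature Extraction 10.5.1.1 gave the spot intensities (10.7.3.1 for 4-day replicates 1 and 2); the deposited processed intensity is background-subtracted within each array and not scaled between arrays. The deposited series table holds the authors' log2 values, which correlated with the log2 processed intensity at 0.970 to 0.998 in experiment 2 (how they were scaled: not given in the sources used). Background and saturation marks are those of the same deposited files.

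Control spots and spots marked as outliers were left out, log2 signals were averaged per probe, and each array's 75th percentile over worm spots was subtracted. A probe was well above background where a share of at least 0.5 of its spots was, and was tested where this held on every array of at least 1 group of experiment 2 (859 of 1035). Saturated spots were kept. Limma 3.58.1 in R 4.3.3 fitted 2, 4 and 8 days together (11 samples, two-sided, Benjamini-Hochberg over the tested probes, threshold 0.05), and the fit was checked on simulated data. The replicates are separate vessels of worms, per the labels' protocols.

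Named probes are all calls where 5 or fewer were made, and the nearest probe that did not pass; others are said to have been chosen after their values were seen. The samples, probe classes and tests were chosen with earlier results of these data known. Gene lists were planned but could not be applied, since the probes carry no gene names. The alternative with normexp used the median spot signal in place of the planned mean, with an offset of 50. The samples were treated as unpaired. Deviations of same-numbered 4-day and 2-day arrays correlated at −0.25, −0.41, −0.12 and −0.15, and those of differently numbered arrays at −0.40 to 0.38. Deviations from a group mean are tied to each other, so these values cannot settle whether the numbers mark a pairing.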

Additional observations from a re-analysis of the deposited data

Results flagged for a closer look

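Of 22 groups of 4 samples checked for 1 sample far from the others (by the gap to the nearest sample over the group's range, Dixon's test at 95%), 2 stood out. By chance about 1 in 20 would. P2_B7_T7_1328934 in 8-day replicate 3 was at −6.30, against a nearest value of −9.79 among the other 8-day samples (gap over range 0.849), and was not well above background in any of them. Ealb_Met_P7_G2_SP6_2090613 in 4-day replicate 1 was at −9.55, against −7.44 in the nearest 4-day sample (gap over range 0.861), all of them not well above background.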

How the results depend on the processing

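The count of 4 called probes moved by more than 1.5 times in 19 of 32 alternatives, of which 3 were added after the data were seen (slide as a block, without the 3 dimmest arrays, and spike-in centring). The count was 2 with arrays centred on their median, 2 in the authors' values, 1 under normexp, 2 with probes well above background on every array, 9 with 2-day arrays 2 and 4 as separate samples, and 1 in the fit of only the 4-day and 2-day samples. It was 41 in 1 fit of both experiments and 111 with array weights. With slide as a random block (correlation −0.45) and 2-day arrays 2 and 4 as separate samples it was 37. It was 34 with 4-day replicates 1 and 2 alone and 0 with replicates 3 and 4 alone (limma, with 75 at an unadjusted p under 0.05). It was 1 without the dimmest 2-day and 8-day arrays, 1 without the 3 dimmest arrays, which leaves 1 sample at 2 days that is assumed to vary like the others, and 7 with spike-in centring. Leaving out 1 sample gave between 0 (without 4-day replicate 1, 2-day replicate 1 or 2-day replicate 3) and 17 (without the averaged 2-day pair), with 11 without 4-day replicate 4. Array weights put 2.84 and 3.07 on 2-day replicates 1 and 3 and 0.311 on the averaged pair. The cause of these shifts was not tested. With the replicate number as a block and 2-day arrays 2 and 4 separate, 3 probes passed, 2 higher and 1 lower, all among the 4. Whether the numbers mark a pairing was not settled. Scan day as a random block gave 3.

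The median difference moved to 0.0094 under quantile normalization, 0.11 with median centring, 0.011 in the authors' values, 0.046 without the 3 dimmest arrays and −0.47 with spike-in centring. The median SD at 4 days lay between 0.588 and 0.711 in 9 alternatives; at 2 days leaving out 1 sample gave between 0.215 and 0.637. P2_B7_T7_1328934 lost its call in 6 of 31 alternatives, P5_A4_T7_1329813 and Ealb_Met_P6_H9_SP6_2090577 in 9 of 32 each and P1_E4_T7_1328836 in 22 of 31.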
